A study of Mus musculus with 4 samples.

Results

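A set of 10 genes that encode receptors for IL-6, GM-CSF and other myeloid growth factors was followed by single-cell RNA sequencing in MDSCs generated in vitro. They were taken by symbol from the 32285 genes of the files, where each of the 10 (Il6ra, Il6st, Csf2ra, Csf2rb, Csf2rb2, Csf3r, Csf1r, Il3ra, Flt3 and Kit) was listed once. The cells came from cultures of bone marrow of C57BL/6 mice, 6 to 10 weeks old per the study's methods, grown for 4 days in the presence of both IL-6 and GM-CSF, at 40 ng/ml of either. WT+PBS and WT+ISO came from wild-type mice without and with isoproterenol (ISO, a synthetic catecholamine, 10 µM, renewed daily). Both cultures held both cytokines, so ISO was the treatment that differed between them, and culture and multiplexing tag differed along with it. Live CD11b+ cells were sorted, carried a multiplexing tag and were pooled before capture. A library here means the cells deposited for 1 group. Each group had 1, with no statement of how many mice gave each. The treatment field of the labels names isoproterenol for all 4 samples, whereas the titles and the methods place it in 2 of them, and the titles were followed.

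The receptor for IL-6 has a ligand-binding chain, encoded by Il6ra, and a signalling chain, gp130, encoded by Il6st and shared by the whole IL-6 family. GM-CSF binds the α chain encoded by Csf2ra, which pairs with the common β chain encoded by Csf2rb, and the same β chain serves IL-3 and IL-5. Mice carry a further β chain, encoded by Csf2rb2, which works with the IL-3 α chain encoded by Il3ra. These receptors have no kinase of their own and signal through JAK kinases and STAT factors. Csf3r encodes the receptor for G-CSF, the main growth factor of neutrophils, and belongs to the same class. Csf1r (receptor for M-CSF and IL-34), Kit (stem cell factor) and Flt3 (FLT3 ligand) encode receptor tyrosine kinases of macrophages, of stem and mast cells, and of early progenitors and dendritic cells. IL-6 and GM-CSF are a common pair of cytokines to drive marrow cells towards MDSCs, and both act on cells through the receptors described here.

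After the filter on cells, WT+PBS kept 2210 of 2232 cells and WT+ISO kept 2264 of 2300, with 24393687 and 29400468 UMIs and a median of 8088.5 and 10252 UMIs per cell. No barcode was shared between libraries of the series (0 of 9525), which pooled cells split by tag would show in any case. Itgam, which encodes CD11b, stood at 336 CPM (UMIs per 1000000 of the library) in WT+PBS against 290.0 with ISO, and S100a8 had a UMI in 99.4% and 99.7% of cells. Xist stood at 387 and 360.1 CPM. Other MDSC markers differed more, with Ly6g at 74.2 CPM in WT+PBS against 123.4 with ISO. Ly6c2 stood at 1017 and 1253 CPM and Arg1 at 7.30 and 2.18, in the same order. The sums of some marker lists of cell types moved with ISO and others hardly did. The 5 monocyte markers summed to 1572 CPM in WT+PBS against 1480 with ISO. Ly6c2 is 1 of these 5 and gave most of both sums, so the rest of the list was together lower with ISO. The 5 NK cell markers summed to 50.6 and 50.8 CPM, but 2 of them had no UMI in either library. Their sum was highest in cluster 9 described below, at 217 CPM with 4 of the 5 at 0, where Nkg7 was a leading gene. The 6 macrophage markers summed to 152 CPM in WT+PBS against 61.5 with ISO, the 6 dendritic cell markers to 1070.4 and 358, and the 5 eosinophil markers to 57.3 and 3.10. The 5 azurophil-granule markers of neutrophil progenitors summed to 4162 and 5440 CPM. The 5 specific-granule neutrophil markers summed to 14643 and 21319 CPM, and the 5 mature neutrophil markers to 903 and 725. The 5 basophil or mast cell markers summed to 9.06 and 5.07 CPM, with Fcer1a at 0 in both libraries. In sums over a library, fewer cells of a type and less RNA per cell cannot be told apart.

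The genes lie on 8 chromosomes of the mouse genome (RefSeq, GRCm38.p6), matched by symbol. Il6ra (ENSMUSG00000027947) is at chr3:89869324-89913196, Il6st (ENSMUSG00000021756) at chr13:112464070-112506860 and Csf2ra (ENSMUSG00000059326) at chr19:61217191-61228461. Csf2rb2 (chr15:78282507-78305721) and Csf2rb (chr15:78325800-78351001) are neighbours, 20078 bases apart. Csf3r is at chr4:126023441-126044975, Il3ra at chr14:14345912-14355493, Kit at chr5:75574987-75656722 and Flt3 at chr5:147330741-147400489. Csf2rb and Csf2rb2 are near-copies, and reads shared by both can be lost or misplaced. Of the 90-base windows of the longest coding transcript of Csf2rb (4900 bases), 8.19% occurred in a transcript of Csf2rb2, but 0 of the 411 windows in its last 500 bases did. The last 500 bases of Csf2rb2 (4740 bases) shared 0 of 411 windows as well.

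The stretch just before the annotated gene is shown for 3 of the receptor genes, since these encode chains of the GM-CSF, IL-3 and IL-6 receptors and differ in motifs of factors that act in these pathways. Capitals mark a match, on either strand, to 1 of 5 motifs. These were the cAMP response element CRE (TGACGTCA), its core TGACG, which a CRE holds on each strand, STAT (TTCNNNGAA), C/EBP (TTGCNNAA) and the PU.1 core GAGGAA. Csf2ra lies on the minus strand (chr19:61228462-61228668), Csf2rb2 on the minus strand (chr15:78305722-78305971) and Il6st on the plus strand (chr13:112463820-112464069), and each stretch is written 5′ to 3′ towards the start of the gene.
Csf2ra: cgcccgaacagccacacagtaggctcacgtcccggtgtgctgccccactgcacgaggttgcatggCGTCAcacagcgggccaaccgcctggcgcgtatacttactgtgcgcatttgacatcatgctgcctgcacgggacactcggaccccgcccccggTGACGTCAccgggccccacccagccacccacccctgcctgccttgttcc
Csf2rb2: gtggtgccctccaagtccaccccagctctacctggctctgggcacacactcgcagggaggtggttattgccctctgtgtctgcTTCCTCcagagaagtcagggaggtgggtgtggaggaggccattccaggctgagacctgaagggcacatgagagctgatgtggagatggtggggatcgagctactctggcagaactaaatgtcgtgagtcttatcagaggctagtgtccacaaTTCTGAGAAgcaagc
Il6st: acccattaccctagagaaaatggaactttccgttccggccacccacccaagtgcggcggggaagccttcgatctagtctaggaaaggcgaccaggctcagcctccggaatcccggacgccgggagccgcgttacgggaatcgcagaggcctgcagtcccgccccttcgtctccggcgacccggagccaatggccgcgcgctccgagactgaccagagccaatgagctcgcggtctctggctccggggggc
RefSeq windows of 300 bases (250 before the start and 50 after) were found for 8 of the 10 genes. Kit had 2 windows, and only the first was searched, so 1 window per gene is meant here. The window of Csf2ra was the only one of the 8 searched with a CRE, and 1.80% of all 32544 windows of that length held one. This CRE was at position -92, counted from the start on which the window was built. For Csf2ra that start lies inside the annotated gene, so positions are not counted from the end of the stretch shown. The window also held 3 cores, at -185, -92 and -89, the latter 2 within the CRE, and 20.9% of all windows held at least 1. The window of Csf2rb2 held a STAT match at -15 (8.33% of all windows) and PU.1 cores at -167 and 30. That of Csf2ra held PU.1 cores at -14 and -8, and 28.1% of all windows held at least 1 PU.1 core. The PU.1 cores of Csf2ra and the one of Csf2rb2 at 30 lie outside the stretches shown. None of the 5 motifs was found in the window of Il6st, and a C/EBP match, present in 10.8% of all windows, was found among the 8 in that of Il3ra alone. These matches describe letters in a window and not binding.

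Values are CPM with the exact Poisson 95% interval of the count. With 1 library per group no test was made, and intervals cover counting error only. UMIs are not divided by gene length, so levels are compared between samples and not between genes. Il6ra had 44.1 CPM in WT+PBS (41.5 to 46.8) against 33.1 with ISO (31.1 to 35.3). Il6st had 16.6 CPM in WT+PBS (15.1 to 18.3) against 10.3 with ISO (9.15 to 11.5). Both chains of the IL-6 receptor were thus lower in the library with ISO, and the intervals did not overlap.

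The ligand-binding chain for GM-CSF, Csf2ra, was nearly level, with 106 CPM in WT+PBS against 103 with ISO, and the intervals overlapped. The common β chain Csf2rb had 291 CPM in WT+PBS (284 to 297) against 254 with ISO (248.7 to 260.2). Csf2rb2 followed it at a lower count, with 50.2 CPM in WT+PBS (47.4 to 53.1) against 43.4 with ISO (41.1 to 45.8). For both β chains the library with ISO was the lower.

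Csf3r had 68.3 CPM in WT+PBS (65.1 to 71.7) against 47.3 with ISO (44.9 to 49.9). Csf1r had 79.4 CPM in WT+PBS (75.9 to 83.0) against 46.9 with ISO (44.4 to 49.4). The growth factor receptors of neutrophils and of macrophages were therefore both lower in the library with ISO, with intervals well apart.

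Low counts were also found for Il3ra, Kit and Flt3. Il3ra had 13.7 CPM in WT+PBS (12.3 to 15.2) against 15.9 with ISO (14.4 to 17.4), and Kit had 8.28 CPM in WT+PBS against 7.04 with ISO, with overlapping intervals for both. Flt3 had 10 UMIs in WT+PBS against 15 with ISO, too few for a comparison of libraries.

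**Figure D1:**
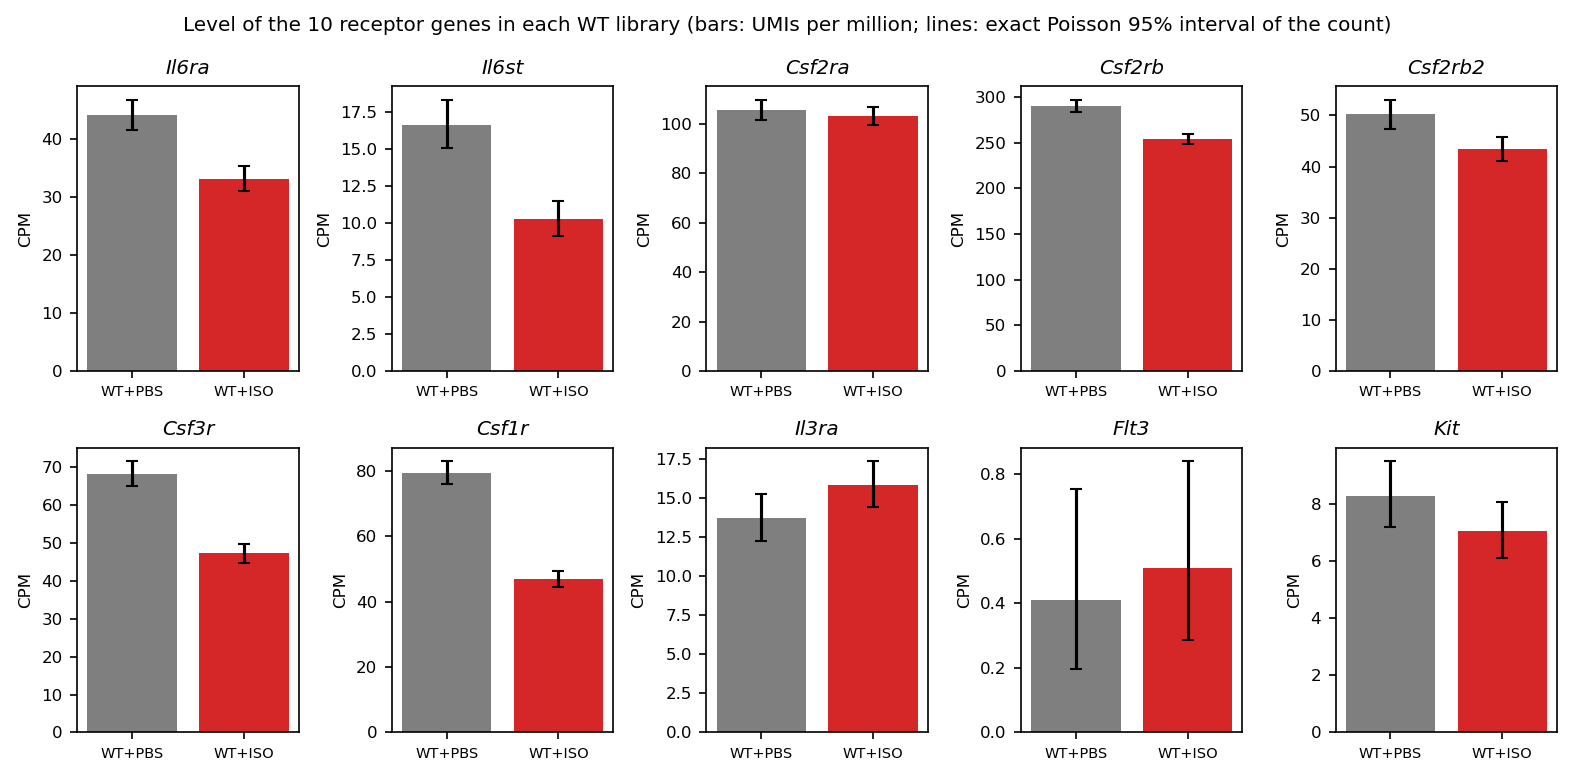
Level of each of the 10 receptor genes in WT+PBS (grey) and WT+ISO (red), in UMIs per 1000000 (CPM, linear axes from 0, a scale of its own per gene), with lines for the exact Poisson 95% interval. For Il6ra, Il6st, Csf2rb, Csf2rb2, Csf3r and Csf1r the WT+ISO bar is the lower and the intervals do not overlap, whereas the Csf2ra bars stand at 106 and 103.

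The 9303 cells kept from the whole series were clustered together with the 10 receptor genes left out, so that no receptor gene shaped a cluster. Of the 13 clusters, 8 could be named from markers, and cell numbers here are for the whole series. Cluster 9 (675 cells, Mpo and Elane) was azurophil-granule neutrophil progenitor-like, clusters 5, 6 and 10 (1246, 353 and 696 cells, each with Ltf or Camp among its leading genes) were specific-granule neutrophil-like and cluster 4 (1079 cells, Retnlg, Mmp9 and Cxcr2) was mature neutrophil-like. Cluster 1 (1203 cells) was monocyte-like with F13a1 alone among its 10 leading genes, which Csta3 and Gm5150 led. The 5 monocyte markers summed to 1844 CPM in its WT cells, against 1930 in specific-granule cluster 5 and 1809 in mature cluster 4. Cluster 7 (803 cells, C1qb and Mrc1) was macrophage-like and cluster 11 (80 cells, Ccr7 and Fscn1) migratory dendritic cell-like. Cluster 7 also held dendritic cell markers, and the 6 of them summed to 5042 CPM in its WT cells. Their sum was 13559 CPM in cluster 11 and at most 1040 in any other cluster. Unnamed were cluster 2 (1476 cells, led by Acta2 and Csf1, with a median of 3168.5 UMIs per cell), cluster 3 (438 cells, Gpnmb), cluster 8 (763 cells, Kcnq5, with a median of 21701 UMIs per cell) and clusters 0 and 12 (318 and 173 cells, Stfa2 and Stfa3). The levels that follow are those of the 4474 WT cells.

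The G-CSF and M-CSF receptors differed in part in where they were high, but both were high in cluster 2. Csf3r stood at 221 CPM in cluster 2 and 209 in mature neutrophil-like cluster 4, and the values of both WT libraries in either cluster lay above those of every other. The 2 clusters overlapped each other, with 262 CPM in WT+PBS against 160.2 with ISO for cluster 2 and 254 against 185 for cluster 4. Cluster 3 followed with 124 CPM, specific-granule cluster 5 with 104 and progenitor-like cluster 9 with 45.4. In the monocyte-like and macrophage-like clusters Csf3r was at 20.5 and 22.2 CPM, and in migratory dendritic cell-like cluster 11 it had 7 UMIs in 38 cells. Csf1r was highest in macrophage-like cluster 7 (238 CPM, 237 in WT+PBS and 240.1 in WT+ISO), then in cluster 2 (202 CPM, 226 and 167) and monocyte-like cluster 1 (108 CPM, 113 and 101). The values of these 3 clusters did not overlap each other or those of mature neutrophil-like cluster 4 (64.7 CPM, 78.9 and 57.1), in the same order of libraries. In clusters 6, 9 and 10 Csf1r was at 1.495 to 9.48 CPM.

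The chains of the IL-6 receptor differed in where they were found. Il6ra was highest in mature neutrophil-like cluster 4 and in cluster 2 (82.9 and 80.6 CPM, with overlapping values of the libraries), followed by macrophage-like cluster 7 and monocyte-like cluster 1 (both 62.0 CPM), and was lowest in progenitor-like cluster 9 (6.08 CPM). Il6st was highest in migratory dendritic cell-like cluster 11 (101 CPM, 108 in WT+PBS and 91.7 in WT+ISO), then in cluster 7 (41.1 CPM) and cluster 1 (33.1 CPM). It stood at 7.94 CPM in cluster 4, at 5.92 in cluster 2 and at 0.392 and 0.846 in clusters 9 and 10, where 4 UMIs were found in 443 cells and 5 in 401. Neutrophil-like cells of the mature cluster thus had the ligand-binding chain at the top of its range and gp130 at a level well below that of the macrophage-like cells.

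The chains of the GM-CSF receptor differed in spread. Csf2ra ranged only from 80.8 CPM (cluster 11) to 153 CPM (cluster 2). Csf2rb ranged from 80.3 CPM in progenitor-like cluster 9 to 835 CPM in cluster 11 and 914 CPM in macrophage-like cluster 7. The values of clusters 11 and 7 overlapped (748 and 969 CPM in cluster 11, 839 and 1072 in cluster 7) and lay above cluster 2 (495 CPM) and cluster 1 (427 CPM). Csf2rb2 had the same 3 clusters at the top, with 235 CPM in cluster 11, 176 in cluster 7 and 108 in cluster 2, and 7.36 in cluster 9. Among the neutrophil-like clusters Csf2rb was at 80.3 to 170 CPM in clusters 5, 6, 9 and 10 and at 281 CPM in mature cluster 4.

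Il3ra lay between 8.85 and 24.1 CPM, from 10 to 181 UMIs a cluster. Of the 25 Flt3 UMIs, 19 were in cluster 11, at 32.6 CPM, and clusters 0, 2, 3, 4, 6, 8, 10 and 12 had 0. Kit was highest in cluster 3 (42.5 CPM) and cluster 11 (32.6 CPM), stood at 16.3 CPM in specific-granule cluster 5, 14.7 in cluster 4 and 12.4 in progenitor-like cluster 9, and was lowest in monocyte-like cluster 1 (0.116 CPM, 1 UMI). Its 409 UMIs were spread over 324 cells, with at most 9 in a cell, and 0 were in the 2 cells with 5 or more UMIs of basophil or mast cell markers. In cluster 3, where Kit was highest, the 5 basophil or mast cell markers summed to 124 CPM, against at most 14.6 in any other cluster, and the 5 eosinophil markers to 1107 CPM, against at most 14.2. Their part in the Kit level was not tested.

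**Figure D2:**
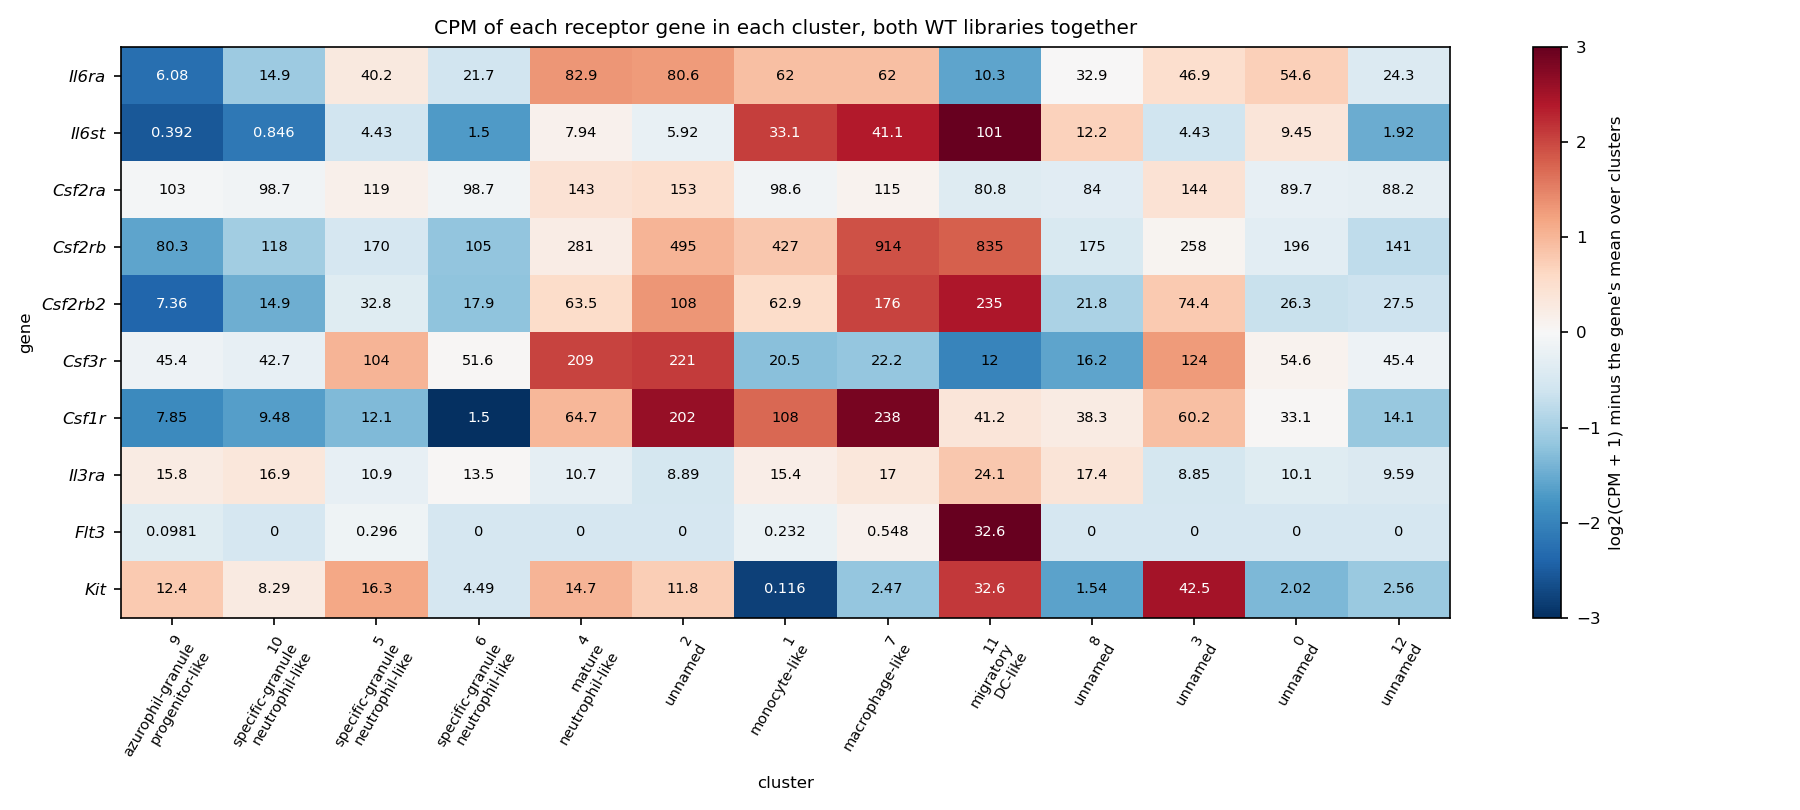
CPM (printed in each cell of the map) of each receptor gene in each of the 13 clusters over both WT libraries together, coloured by log2(CPM + 1) minus the gene's mean over clusters. Csf1r is red in clusters 7, 2 and 1, Csf3r in clusters 2 and 4, and Il6st and both β chains in clusters 7 and 11, while the Csf2ra row is pale, from 80.8 to 153 CPM.

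Cells differ in depth, so shares of cells with a UMI were taken after each cell was thinned to 2000 UMIs, which left out 308 shallower WT cells (181 in WT+PBS against 127 with ISO). Csf1r then had a UMI in 39.7% of macrophage-like cells and 33.9% of cluster 2 (91.2% and 51.8% before thinning). In progenitor-like cluster 9 and specific-granule cluster 10, which had low Csf1r levels, the shares at the same depth were 0.911% and 0.998% (14.2% and 11.7% before). Csf3r had one in 33.4% of cluster 4 and 30.6% of cluster 2 (58.8% and 53.4% before), against 4.66% of monocyte-like cluster 1 (26.9% before). By library, the thinned share for Csf1r was 16.4% in WT+PBS against 9.03% with ISO (40.8% and 29.1% before). For Csf3r it was 17.7% and 12.2% (44.8% and 38.7% before). WT+ISO had the lower share for both genes at either depth.

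Receptor chains were also sought in the same cell. Whether pairs were seen together more often than their single shares would give was not tested. In thinned cells of cluster 2 the single shares were 33.9% for Csf1r and 30.6% for Csf3r. They were 26.1% for Csf2ra and 63.7% for at least 1 β chain. Csf1r and Csf3r were seen together in 11.01% of cluster 2 (8.51 to 13.9, exact binomial 95% interval), in 5.17% of cluster 4 and in 2.53% of the macrophage-like cells, against 26.1%, 15.9% and 20.9% before thinning. The GM-CSF α chain and at least 1 β chain were seen together in 17.4% of cluster 2, 16.0% of cluster 7, 12.9% of cluster 4 and 1.82% of cluster 9. Before thinning the deep cells of cluster 9 reached 67.3% and the shallow cells of cluster 2 stood at 35.9%, so that the order of these clusters was the opposite of that at equal depth. Il6ra and Il6st were seen together in 4 of 237 macrophage-like cells (1.69%, 0.462 to 4.26) and 1 of 472 monocyte-like cells (23.8% and 25.6% before). In cluster 9 they were seen together in 0 of 439 thinned cells, which at 3 counts of the total allows a share of up to 0.683% of cells with UMIs of both at this depth. Il6st itself had a UMI in 0% of these cells, which fixed the joint count at 0. A cell without a UMI at this depth may still hold the transcript.

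ISO was compared with PBS in WT cells as the log2 ratio of CPM, with an exact conditional binomial 95% interval. Csf1r was at -0.76 (-0.86 to -0.66), Il6st at -0.70 (-0.92 to -0.48), Csf3r at -0.53 (-0.63 to -0.43) and Il6ra at -0.41 (-0.54 to -0.29). Csf2rb2 was at -0.21 (-0.32 to -0.10), Csf2rb at -0.19 (-0.24 to -0.14), Csf2ra at -0.03 (-0.11 to 0.04) and Kit at -0.23 (-0.52 to 0.05). Il3ra was the exception, at 0.21 (0.0053 to 0.42). Of the 9 receptor genes with at least 100 UMIs over both libraries (Flt3 had fewer), 2 were lower by 1.5-fold or more, Csf1r and Il6st, and 0 were higher. Of all 10771 genes counted, 5.50% were lower and 1.00% higher by that fold. Csf3r, at 1.44-fold lower, lay just under the threshold. With equal weight per cell, Il6st moved to -0.44 and was no longer past the fold, while Csf3r, at -0.72, was. With cells thinned to 2000 UMIs, Il6st was at -1.30 and Csf3r at -0.72. The thinned Il6st value rests on 58 cells with a UMI in WT+PBS and 27 in WT+ISO. Thinning also left out cells unevenly, 18.7% of WT+PBS and 54.5% of WT+ISO cells in cluster 3. In cluster 2 it left out 23.2% and 14.8%, in the same order. The median log2 ratio was -0.23 over the 9 and -0.02 over all genes, and 8 of the 9 were below 0, as were 53.0% of all genes.

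The libraries also differed in the clusters they held. Clusters rest on genes that may themselves differ between the libraries. Clusters 4, 5, 6, 8, 9 and 10 held a larger share of cells in WT+ISO. Specific-granule cluster 10 held 5.75% of WT+PBS cells and 12.1% of WT+ISO cells, and progenitor-like cluster 9 held 8.19% and 11.6%. By contrast, cluster 2 held 20.6% of WT+PBS cells and 10.1% of WT+ISO cells, and macrophage-like cluster 7 held 7.42% and 3.31%. Both are clusters with high Csf1r and Csf2rb. The sums of the macrophage, dendritic cell and eosinophil markers given above were lower in WT+ISO as well, and their part in the library ratios was not tested. The ratios were therefore also taken with the clusters at fixed weights, as the mean of the cluster CPM weighted by each cluster's share of all 9303 cells. Csf3r then kept its ratio, at -0.52, while Csf1r moved to -0.24, Il6ra to -0.13 and Il6st to -0.04. Csf2rb and Csf2rb2 changed sign, to 0.26 and 0.32, Il3ra was at 0.32 and Csf2ra stayed at -0.03. At fixed weights 0 of the 9 were past 1.5-fold in either direction, against 2.71% lower and 1.62% higher of all genes. Over 6 ways of clustering and weighting (5 of them chosen after seeing the data) the ratio of Csf3r was -0.63 to -0.49, beyond 1.5-fold in the extreme, and that of Csf2rb was 0.17 to 0.28.

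Within clusters, Csf3r was lower in WT+ISO in 10 of the 12 clusters with at least 20 UMIs, and in 8 of them the interval lay below 0. In cluster 2 it had 262 CPM in WT+PBS against 160.2 with ISO. In mature neutrophil-like cluster 4 it had 254 and 185 CPM, in specific-granule cluster 5 it had 131 and 87.7, and in progenitor-like cluster 9 it had 57.6 and 37.6, in the same order. The lower level with ISO was thus seen from the progenitor-like to the mature neutrophil-like cells, but not in them alone. Monocyte-like cluster 1 was at -0.74 (-1.21 to -0.27). Unnamed clusters 8 and 12 were at -0.58 (-1.04 to -0.13) and -0.81 (-1.57 to -0.08). The log2 ratio was -0.71 in cluster 2 (-0.96 to -0.47), -0.46 in cluster 4 (-0.71 to -0.20), -0.58 in cluster 5 (-0.89 to -0.27) and -0.62 in cluster 9 (-0.89 to -0.35). Macrophage-like cluster 7, where Csf3r was low, went the other way, from 18.2 CPM (45 UMIs) in WT+PBS to 30.7 CPM (36 UMIs) in WT+ISO. Cluster 3 was the other exception, at 0.26 (-0.26 to 0.77).

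Csf2rb was higher in WT+ISO in all 13 clusters, with the interval above 0 in 8, while its sum over the library was lower. In macrophage-like cluster 7 it had 839 CPM in WT+PBS against 1072 with ISO. In monocyte-like cluster 1 it had 393 and 468 CPM. In specific-granule cluster 5 it had 136 and 191 CPM. The log2 ratios ran from 0.02 in cluster 2 to 0.48 in cluster 5. After thinning, the share of cells with a Csf2rb UMI was 16.1% in WT+PBS against 11.6% with ISO in cluster 9. In cluster 11 this share was 84% and 61.5%, of 25 and 13 cells. In the other clusters the share was higher in WT+ISO. Csf2rb2 was higher in 11 of 13 clusters, with the largest ratio in cluster 11 (170 CPM in WT+PBS, 336 in WT+ISO, from 60 and 77 UMIs in 25 and 13 cells).

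For Csf1r, Il6st and Il6ra the ratio at fixed weights lay closer to 0 than that over the library. Csf1r in macrophage-like cluster 7 had 237 CPM in WT+PBS against 240 with ISO, a log2 ratio of 0.02 (-0.19 to 0.22), and in monocyte-like cluster 1 a ratio of -0.17 (-0.36 to 0.02). Its interval lay below 0 in cluster 2 alone, with 226 CPM in WT+PBS against 167 with ISO. In cluster 11 it had 17.0 and 78.6 CPM, from 6 and 18 UMIs in 25 and 13 cells, the only interval above 0. After thinning, 4% of these WT+PBS cells and 0% of these WT+ISO cells had a Csf1r UMI. Il6st was at 40.0 and 43.4 CPM in cluster 7 and at 35.9 and 29.8 in cluster 1, and none of its 5 clusters with at least 20 UMIs had an interval off 0. For Il6ra the interval lay below 0 in 1 of 12 clusters, cluster 1, at -0.31 (-0.57 to -0.06). Cells within a cluster may still differ in makeup between libraries.

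**Figure D3:**
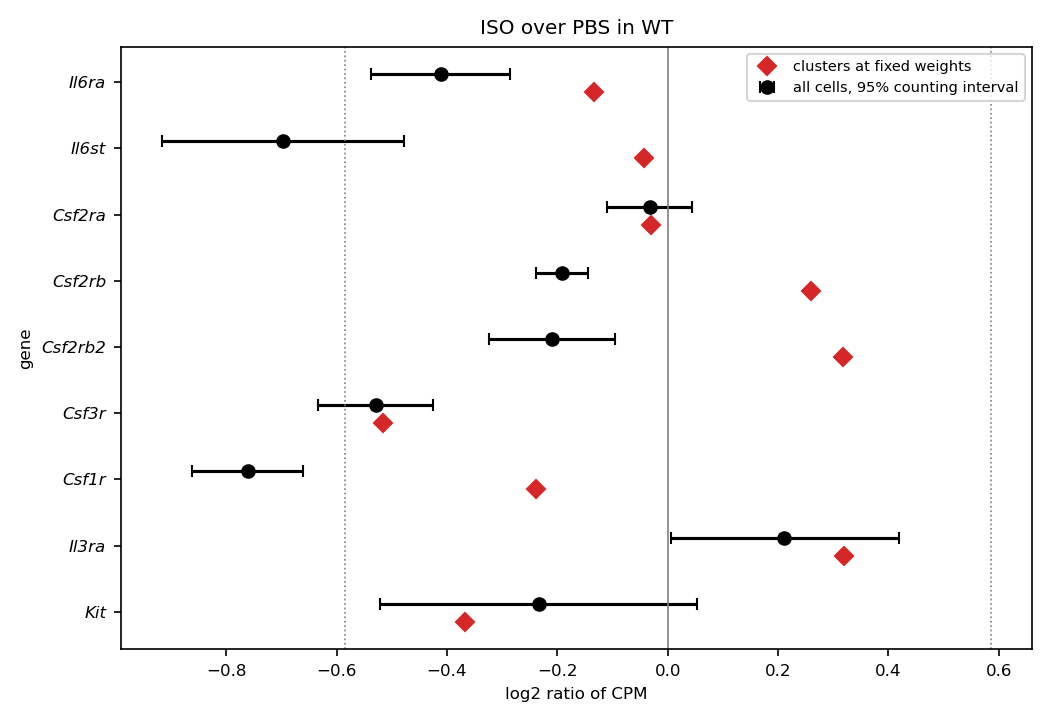
Log2 ratio of CPM, ISO over PBS, for the 9 receptor genes with at least 100 UMIs over both libraries in WT, over all cells (black, with the 95% counting interval) and with clusters at fixed weights (red). Dotted lines mark 1.5-fold. The red point of Csf3r stays at -0.52 while those of Csf2rb and Csf2rb2 move to 0.26 and 0.32.

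**Figure D4:**
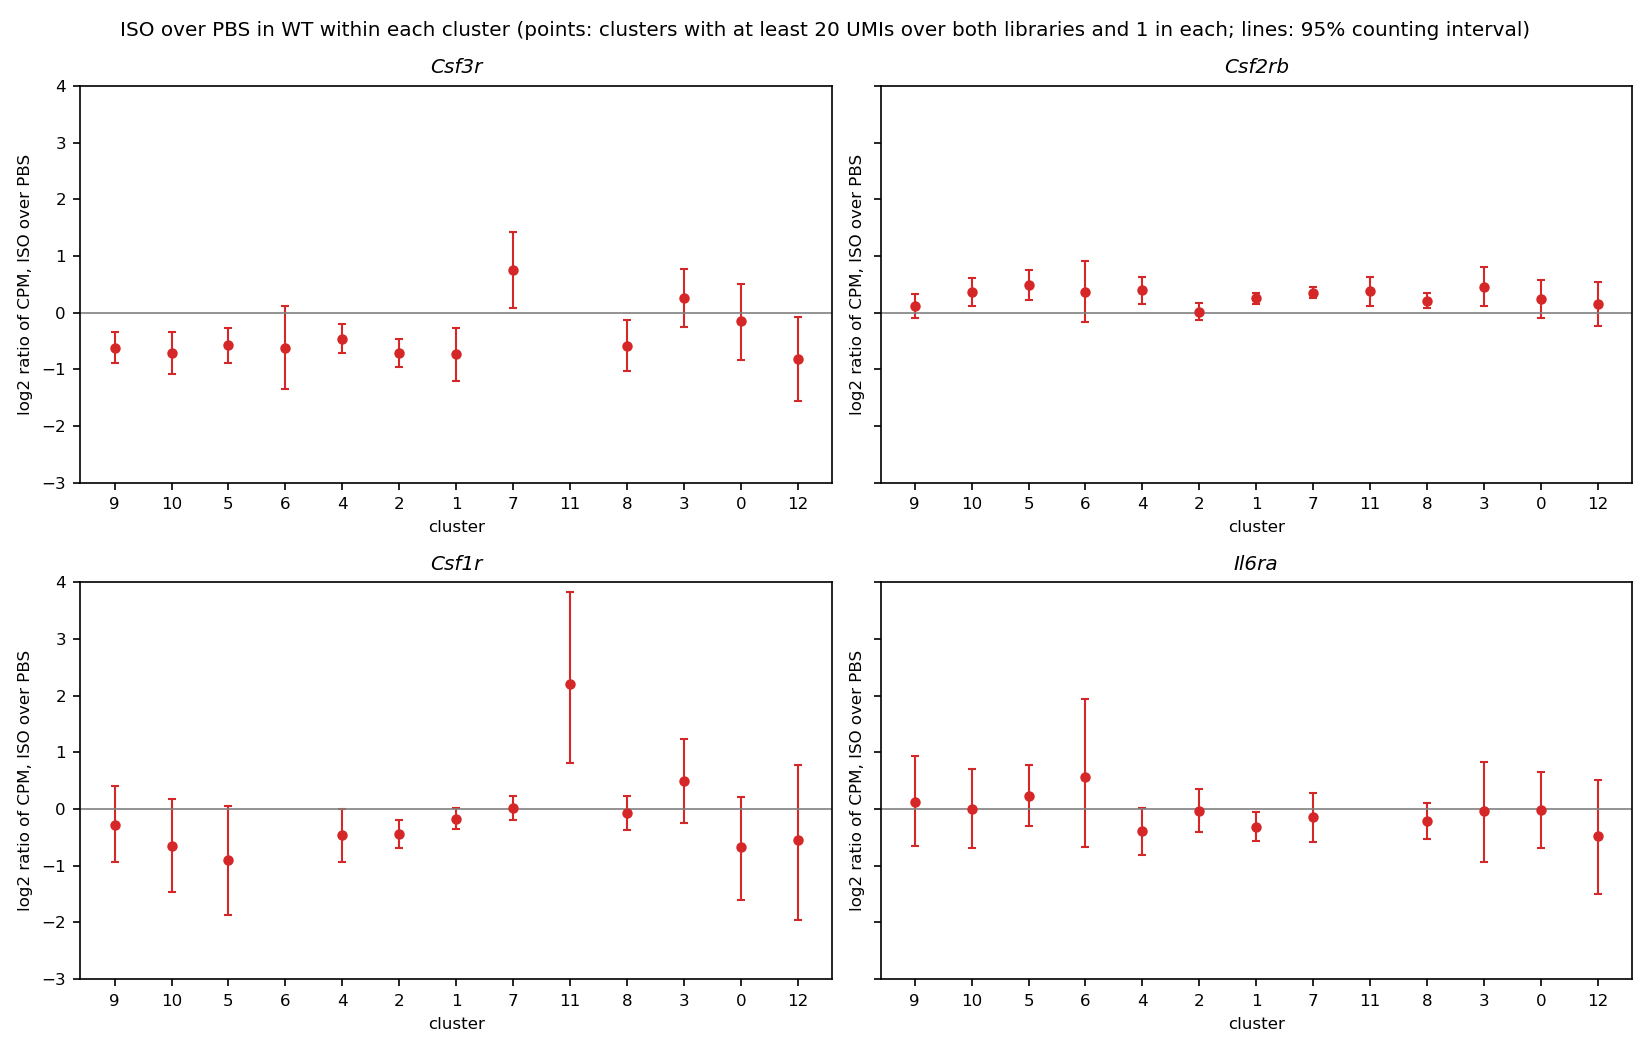
Log2 ratio of CPM, ISO over PBS, of Csf3r, Csf2rb, Csf1r and Il6ra within each cluster (x axis, cluster number, neutrophil-like clusters to the left) in WT, with 95% counting intervals. Of the clusters with at least 20 UMIs, 10 of 12 points of Csf3r lie below 0 and all 13 of Csf2rb above 0.

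Of 12 ligand genes of these receptors, 3 had at least 100 UMIs over the WT libraries. Csf1, which encodes M-CSF, had 28.4 CPM in WT+PBS against 11.5 with ISO. This was a log2 ratio of -1.30 (-1.49 to -1.11) that was -0.80 at fixed weights. Its level was highest in clusters 2 and 3 (109.6 and 127 CPM, from 333 and 143 UMIs). Clusters 1 and 7 held 148 and 145 of its UMIs, at lower levels. Osm, a gp130 cytokine, was at -0.19 (-0.30 to -0.08), with the highest level in specific-granule cluster 5 (137 CPM), and Flt3l at 0.06 (-0.24 to 0.36). Csf2, Il3 and Il5 had 0 UMIs in both WT libraries, and Il6 had 32 in WT+PBS against 15 with ISO, so that hardly any transcript of the culture cytokines themselves was seen.

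Of 22 other cytokine receptor genes, 16 could be counted in WT, of which 2 were lower by 1.5-fold, 0 were higher and 13 were below 0, beside 5.50% lower, 1.00% higher and 53.0% below 0 of all genes. Tgfbr1, a receptor for TGF-β, was at -0.63 (-0.77 to -0.48) and stayed at -0.63 at fixed weights, Il13ra1 was at -0.59 (-0.71 to -0.46) and at -0.26 at fixed weights, and Il10ra at -0.48 (-0.61 to -0.35) and at -0.29 at fixed weights. Of 24 genes of signalling next to the receptors, 2 were lower by 1.5-fold, 0 were higher and 18 were below 0, and the count past the fold is close to the share over all genes. Jak2, the kinase used by the GM-CSF receptor, had 132 CPM in WT+PBS against 76.0 with ISO (-0.79, -0.87 to -0.72, and -0.50 at fixed weights). Socs3, an inhibitor induced by STAT3 that acts on gp130 and the G-CSF receptor, was at -0.60 (-0.72 to -0.47) but at -0.06 at fixed weights. Adam17, a protease that sheds IL-6 and M-CSF receptors, was at -0.47 (-0.59 to -0.35) and at -0.21 at fixed weights.

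The genes whose level was most like that of each receptor were found over 24 sums of UMIs. There was 1 sum for each cluster and WT library with at least 30 cells. Migratory dendritic cell-like cluster 11, with 25 and 13 cells, fell short in both libraries and was left out. Its levels of Il6st, Csf2rb2 and Il3ra were the highest of any cluster (101, 235 and 24.1 CPM), and Csf2rb stood at 835 CPM. The correlations of these genes therefore do not cover those cells. The sums share libraries and clusters, and the Pearson correlations of log2(CPM + 1) are given as a description. Il6ra was closest to Emilin2 (0.97), Tpd52 (0.97) and Tarm1 (0.96). Csf1r was closest to Dip2b (0.96), Dock4 (0.95) and St8sia4 (0.95). Csf2rb was closest to Pld3 (0.97), Tbxas1 (0.96), which encodes thromboxane A synthase, and Pitpna (0.95), and Csf2rb2 to Cdc42se2 (0.96), Rbpj (0.96), the nuclear partner of Notch, and Epsti1 (0.95). Csf3r was closest to 2310001H17Rik (0.90), Hcst (0.90) and Lst1 (0.89), and Il6st to Atp13a2 (0.92), Gngt2 (0.88) and Ctsc (0.87), which encodes cathepsin C. For Csf2ra the closest were Slco3a1 (0.91), Orai1 (0.90) and Txnip (0.85), and for Il3ra they were Arl16 (0.82), Pdha1 (0.75) and Dhrs4 (0.74). Kit and Flt3 had too few UMIs to be compared in this way. Between the receptors, Csf2rb and Csf2rb2 correlated at 0.95 and Csf2rb and Csf1r at 0.88, whereas Csf3r and Csf1r were at 0.08 and Csf2ra and Il6st at 0.04.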

How the data were processed

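Single-cell libraries were made from sorted CD11b+ cells on the 10X Genomics platform. The deposited values are raw UMI counts of each gene in each cell, which the authors left unnormalized. The file header names Cell Ranger 7.0.0, whereas the submitters' processing notes name Cell Ranger 6.0.0, Seurat and mm10 (GRCm38). The treatment of introns and the rule that assigned barcodes to samples are not given in the sources used here. Groups were taken from the sample titles. Cells of all 4 libraries were filtered and clustered together and set the cluster weights, and only the libraries titled WT+PBS or WT+ISO have values here; some items of the series are not reported.

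A cell was retained if 200 genes or more were detected and mitochondrial genes gave no more than 10% of its UMIs (9303 of 9525 cells), and the 12 multiplexing tags were left out. Counts were summed per library or cluster and divided by the total (CPM). Clusters were found with scanpy 1.11.5 (2000 variable genes without the receptors, 30 principal components, 15 neighbours, Leiden resolution 1.0, seed 0). A cluster was named when at least 3 markers of a class were in at least 10% of its cells, their mean log2 ratio was at least 1 and at least 1 was among the 10 leading genes, a rule written with the data in view. Names rebuilt in this way may differ from the study's. Scrublet called 17 cells doublets (0.183%), far below the expected 6%, so its calls were not relied on and doublets remain possible. A gene was counted as past the fold at 1.5-fold with at least 100 UMIs over both libraries. Each group has 1 library, so no p-value was computed. Intervals are 95% (exact Poisson, exact conditional binomial and Clopper-Pearson), with a floor of 3 counts. UMI intervals cover counting error only. The receptors, gene lists and markers were chosen with earlier results of these data known. The text names all 10 receptors, the 3 genes closest to each with at least 500 UMIs, and of each gene list the members with the largest absolute log2 ratio in WT.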

Additional observations from a re-analysis of the deposited data

How the results depend on the processing

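No paired analysis was possible because 1 library stands for each group, and no replicate could be left out. The count of receptors past 1.5-fold with ISO in WT went from 2 to 0 with clusters at fixed weights and at a fold of 2, and was 3 when cells were thinned (Csf1r, Il6st and Csf3r). With equal weight per cell it was 2, but these were Csf1r and Csf3r, since Il6st moved to -0.44. The signs of both β chains changed at fixed weights, to 0.26 (Csf2rb) and 0.32 (Csf2rb2). Chosen after seeing the data, weights by UMIs gave 0.28 and 0.35, resolution 0.4 gave 0.17 and 0.22, 0.6 gave 0.22 and 0.31, 1.4 gave 0.26 and 0.33, and 4000 variable genes 0.24 and 0.30. The cause was not tested. Of 130 values over 13 settings, 89 stayed within their counting interval and 29 moved outside it. A further 12, all of the β chains at fixed weights, took the opposite sign. The 89 include every value of Flt3, whose interval was wide. Removal of called doublets took 4 cells from either WT library, so that setting could hardly move a value. Among the named cell classes, the one with the highest level was the same for all 10 receptors under 4 alternatives and for 9 of them at resolutions 0.4 and 0.6, where Csf2rb was highest in the migratory dendritic cell-like cells. No cluster had a median UMI count far enough below that of all cells (3168.5 at the lowest against 8428), so the planned setting that leaves out low-depth clusters gave no value. Counts limit Flt3 (25 UMIs), Kit and Il6st most.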

Other observations

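The multiplexing tags entered no comparison. The leading tag gave 95.4% of the tag UMIs of WT+PBS against 97.1% with ISO, it differed between the libraries, and it was the most abundant tag in all 2210 and 2264 cells kept. Pooled cells split by tag would show this in any case.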
